A study of Daphnia magna with 48 samples.

Results

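Clone HU (HU-K-6 in the labels) of the water flea *Daphnia magna* was compared with and without acute severe hypoxia (ASH). The samples were picked by the clone named in the sample labels, which gave 12 of the 48 samples of the series. HU goes back to a soda lake at Kelemen-szék in Hungary, which the study places in its permanent habitat class although the lake is described there as drying in some summers. All 12 samples were whole bodies of HU females aged 25 days, each a pool of 2 individuals, so that every value below is for 1 clone. Of the pools, 6 were reared in normoxia (8 mg O2/L) and 6 in chronic mild intermittent hypoxia (CMIH), in which the oxygen of the whole tank was lowered to 4 mg/L at intervals. From either rearing condition, 3 pools were taken as controls at the oxygen of their rearing condition and 3 pools after 12 h in sealed flasks at or below 1 mg O2/L (ASH). The 4 groups are called normoxia control, normoxia ASH, CMIH control and CMIH ASH, and each has 3 samples. The animals came from all tanks of 1 block of the rearing experiment, and ASH was applied in flasks that each held several animals. Which pool came from which tank or flask was not given in the sources used here. The p-values therefore measure the spread between pools, and pools may share a flask. As controls for sequencing the study's methods name animals kept unfed in flasks of the same kind, at the oxygen of their rearing and for the same 12 h, beside others frozen at once. The methods also describe replicate libraries that each held all 4 treatments. The labels do not tie samples to these libraries, so that no term for them is in any fit or p-value here.

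Hemoglobin in *Daphnia* is a large protein made of many globin domains and dissolved in the hemolymph, and low oxygen is known to raise its synthesis, so that animals from oxygen-poor water turn red. The response runs through the hypoxia-inducible factor, a transcription factor that is stable when oxygen is scarce and that acts on hemoglobin gene promoters and on genes of sugar breakdown. Cytoglobin is a globin that stays inside cells and that in vertebrates binds oxygen and nitric oxide. The table gives transcripts by identifiers of contig and gene without a description, and 4 of them can be named because the study labels them as precursors of hemoglobin (11F0.55 and 3F39.53) or cytoglobin (35F4.44 and 0F43.50). Transcripts are written here as contig number, the letter in the contig name and gene number, so that 11F0.55 stands for the gene numbered 0.55 on contig 11. Positions on the contigs are not part of the table.

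The authors counted Nanopore cDNA reads on 6050 transcripts. Total reads in HU ranged from 43716 to 200983 per sample (median 74506), with 72574 to 200983 in the ASH samples and 43716 to 102250 in the controls. Between 4658 and 5547 transcripts had reads in a sample, and the 10 most abundant took a median of 22.9% of the reads. Levels are given in CPM, the reads of a transcript scaled to a common library total, on which 3 reads correspond to 14.9 to 68.6 CPM depending on depth. The median transcript had 62 reads over the 12 samples and 91 transcripts had 0. One control stood apart: in normoxia control replicate 5, 37 of the 3164 transcripts with at least 60 reads had over 50% of their summed CPM, against 0 to 2 transcripts in each other sample. The labelled treatment was matched by the hemoglobins, which together made up 0.242% to 0.495% of the reads in the ASH samples and 0.0134% to 0.128% in the controls.

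ASH was tested in a fit with rearing condition as a block (edgeR's quasi-likelihood test on counts, Benjamini-Hochberg adjustment over all transcripts, threshold 0.05). A single transcript, 1 of 6050 or 0.0165%, passed the threshold. It was the hemoglobin transcript 11F0.55, which rose. No transcript fell past the threshold. At an unadjusted p under 0.05 there were 130 higher transcripts (2.15% of 6050) and 104 lower ones (1.72%), and at an unadjusted p under 0.01 there were 35 higher and 9 lower. DESeq2's likelihood ratio test called 6 transcripts, all higher, and edgeR with the spread shared over all 48 samples called 10, all higher. The median log2 fold change of all transcripts was 0.01, but the scaling of the libraries centres these values, so that a shift common to most transcripts could not be seen. The standard error of a log2 fold change had a median of 1.02 for transcripts with 1 to 23 reads and 0.32 for those with 200 reads or more, which sets the size of change that 12 samples at this depth can show.

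**Figure D1:**
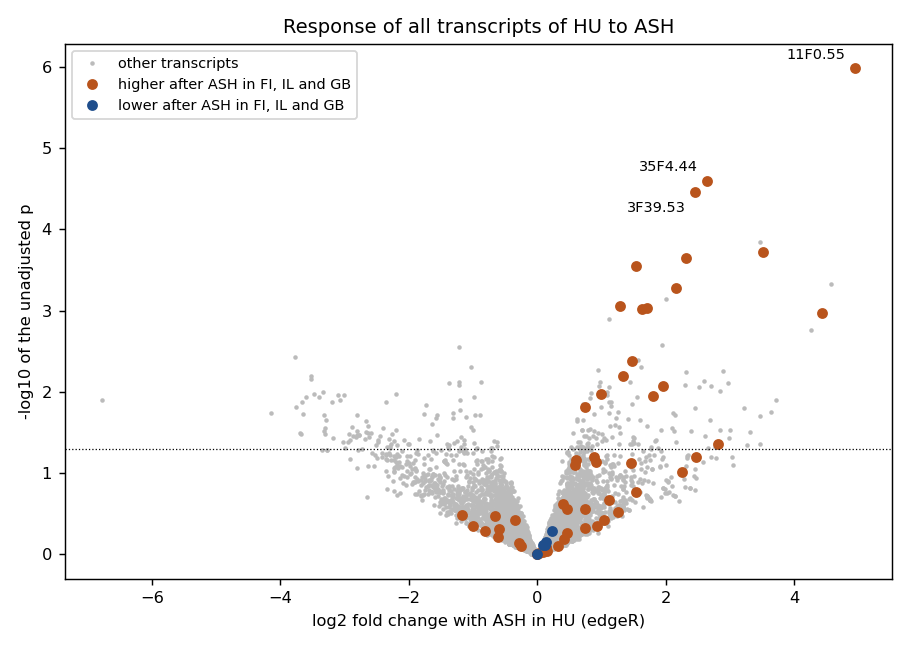
Response to ASH of the 6050 transcripts in HU. The horizontal axis is the edgeR log2 fold change of ASH against control with rearing as a block, and the vertical axis is -log10 of the unadjusted p, with a dotted line at the threshold of 0.05. Colours mark the 53 transcripts called higher and the 5 called lower after ASH in the other clones; the hemoglobin transcript 11F0.55 stands alone at the top right, followed by the cytoglobin 35F4.44 and the hemoglobin 3F39.53.

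The hemoglobin transcript 11F0.55 was nearly absent from normoxia controls. Its levels there were 0, 13.3 and 33.4 CPM in replicates 4, 5 and 6, which come from 0, 1 and 2 reads. After ASH the normoxia-reared pools had 1149, 1915 and 1612 CPM in replicates 10, 11 and 12. The CMIH controls 7, 8 and 9 had 9.78, 153 and 45.2 CPM, and the CMIH ASH pools 1, 2 and 3 had 928, 829 and 1535 CPM. The lowest ASH sample was thus above the highest control, CMIH control replicate 8, by more than the whole range of the controls. The log2 fold change over both rearing conditions was 4.95 ± 0.63 (SE; edgeR adjusted p = 0.00628). It stayed between 4.67 and 5.90 when each library was left out in turn, with edgeR adjusted p of at most 0.029.

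The other hemoglobin transcript, 3F39.53, was present in every sample and is much longer in the reference (7466 bases against 2339 for 11F0.55). It had 297, 306 and 100 CPM in the normoxia controls and 1617, 3031 and 2381 CPM after ASH. In CMIH-reared pools it had 548, 1132 and 437 CPM in the controls and 2414, 1592 and 3124 CPM after ASH. The ASH and control samples did not overlap. The log2 fold change was 2.46 ± 0.42 (SE), with an edgeR adjusted p of 0.0699. This misses the threshold, and 6 of 19 alternative analyses put it below 0.05, among them DESeq2 (adjusted p = 0.000845) and the fit without CMIH control replicate 8 (edgeR adjusted p = 0.01). The exact permutation test of the mean difference in log2(CPM + 1) within rearing conditions gave p = 0.005, two-sided, which is the lower limit with 400 relabellings.

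The cytoglobin transcript 35F4.44 had the second-lowest p of all transcripts. Its controls had 22.9, 39.9 and 33.4 CPM after normoxia and 39.1, 245 and 121 CPM after CMIH. Its ASH samples had 289, 331 and 497 CPM after normoxia and 596, 428 and 741 CPM after CMIH. All ASH samples lay above all controls, with CMIH control replicate 8 again the nearest. The log2 fold change was 2.65 ± 0.44 (SE; edgeR adjusted p = 0.0699), and without CMIH control replicate 8 it was 3.15 (edgeR adjusted p = 0.00522). The exact permutation test gave p = 0.005, two-sided. The other cytoglobin transcript, 0F43.50, was too rare to judge, with 16 reads in all 12 samples. Its reads were 0 in all 3 normoxia controls and in 2 CMIH controls, and 3 in the remaining control, while 5 of the 6 ASH samples had 1 to 5 reads. Its log2 fold change was 1.54 ± 1.06 (SE; edgeR adjusted p = 1), which is not a difference detectable at this depth.

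The globin levels of the controls were set against each other by rearing condition. CMIH controls had a mean of 69.3 ± 74.6 CPM (SD, n = 3) of 11F0.55 against 15.6 ± 16.8 in normoxia controls, 706 ± 373 against 234 ± 116 CPM of 3F39.53, and 135 ± 104 against 32.0 ± 8.58 CPM of 35F4.44. The control groups overlapped for 11F0.55 and 35F4.44 and did not overlap for 3F39.53. None of the 3 differences passed the test across all transcripts (edgeR adjusted p = 1 for each), and with CMIH applied to tanks the pools do not replicate the rearing condition. After ASH the means of 3F39.53 were 2343 ± 708 CPM in normoxia-reared and 2377 ± 767 CPM in CMIH-reared pools.

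Scaled by length, 11F0.55 had the higher value of the hemoglobin transcripts in every ASH sample of HU, and 3F39.53 in every ASH sample of the other clones. In CPM, which is not scaled by length, 3F39.53 was the higher of them in every ASH sample of HU as well. Its mean there was 2360 ± 660 CPM, against 1328 ± 426 CPM of 11F0.55 (SD, n = 6). The order within HU thus rests on the scaling by length, and whether that scaling suits these cDNA reads was not tested. It is not read here as 11F0.55 having more molecules. In RPKM (reads scaled by transcript length and library total, deposited by the authors), 11F0.55 reached 355 to 819 in the 6 ASH samples of HU and 3F39.53 reached 213 to 418. The ratio of 3F39.53 to 11F0.55 within a sample ranged from 0.441 to 0.815 in HU (median 0.549). In the ASH samples of the other clones it ranged from 2.28 to 4.84 in FI, from 1.91 to 12.0 in IL and from 2.58 to 8.77 in GB. Every HU ratio was thus below every ratio elsewhere. The mean RPKM of 11F0.55 after ASH was 568 ± 182 (SD, n = 6) in HU, against 545 ± 232 in FI, 355 ± 396 in IL and 565 ± 396 in GB, while 3F39.53 had 316 ± 88.5 in HU, 1701 ± 395 in FI, 1307 ± 644 in IL and 2156 ± 717 in GB. The control level of 3F39.53 was also low in HU, at 63.0 ± 47.9 RPKM against 106 ± 64.8 in IL, the lowest of the others. The ratio was chosen after its values were seen and has no test here, and because no sequencing run held 2 clones, clone and run cannot be told apart in these levels.

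Beyond the globins, 5 transcripts without a description completed the 8 higher ones with the lowest p among transcripts with at least 60 reads and the same sign after both rearing conditions. Transcript 26F14.45 had 33.4 to 382 CPM in the controls (median 189) and 662 to 1858 CPM after ASH (median 992), and its log2 fold change was 2.31 ± 0.48 (SE; edgeR adjusted p = 0.228). Transcript 16F2.79, the most highly expressed of them, had 422 to 1037 CPM in the controls (median 723) and 1405 to 3757 CPM after ASH (median 1995). Its log2 fold change was 1.53 ± 0.33 (SE; edgeR adjusted p = 0.242). In both the ASH and control samples were fully separated. Transcript 1F26.8 had 0 to 160 CPM in the controls and 189 to 458 CPM after ASH, with a log2 fold change of 2.16 ± 0.49 (SE; edgeR adjusted p = 0.354). The last 2, 0F41.26 and 19F15.56, had log2 fold changes of 1.29 ± 0.31 and 1.71 ± 0.42 (SE; edgeR adjusted p = 0.439 for both), and for 19F15.56 the CMIH groups overlapped. None of the 5 passed the edgeR threshold; DESeq2's likelihood ratio test and the fit with the spread of all 48 samples both put 26F14.45, 16F2.79 and 1F26.8 past it.

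**Figure D2:**
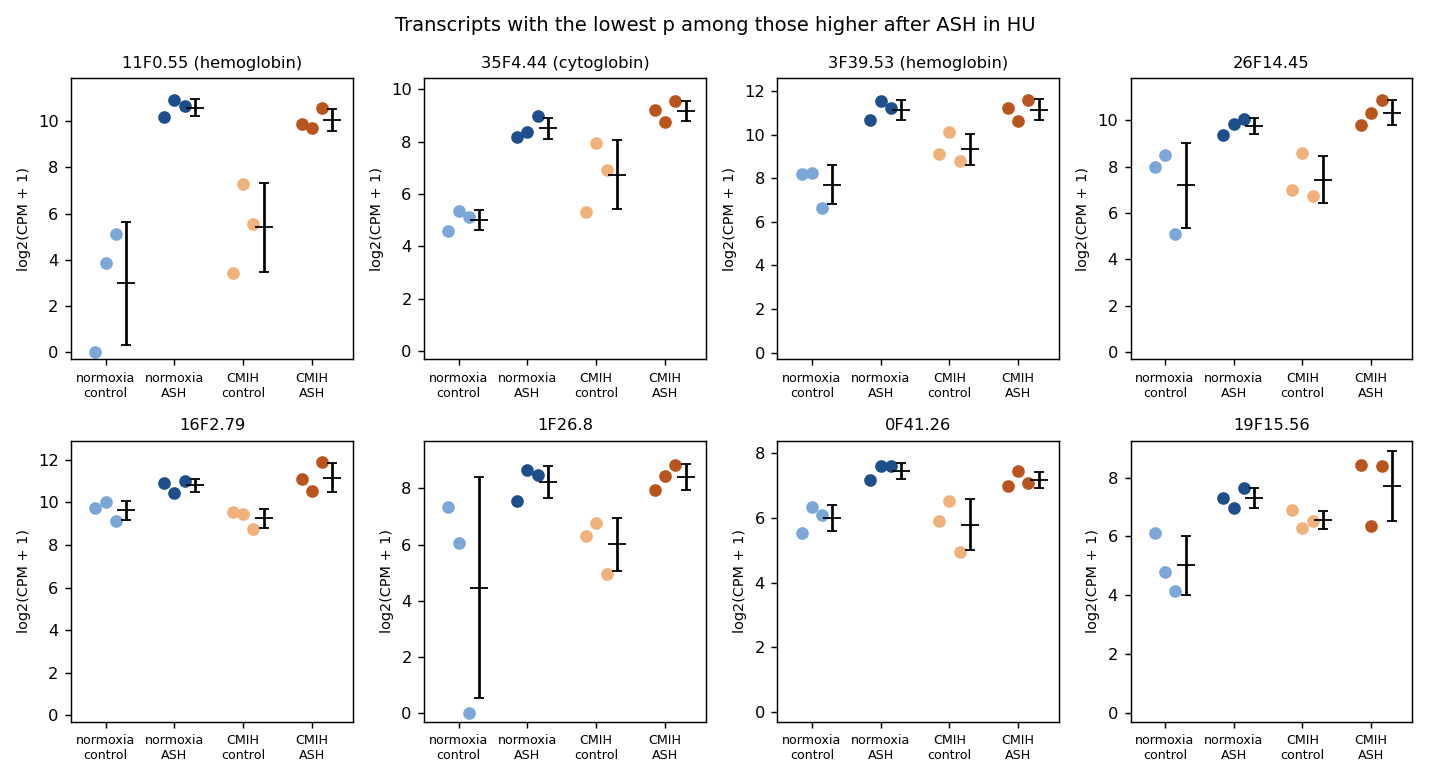
Levels of the 8 transcripts with the lowest p among those higher after ASH in HU, as log2(CPM + 1). Each point is 1 of the 12 pools, and the bars give the mean and SD of the 3 pools of a group on that scale. The ASH points lie above all control points in 7 of the 8 transcripts, the exception being 19F15.56, and in 14 of all 6050 (0.231%). The 8 were picked by p in these same pools, so that such a separation largely follows from the choice. The gap is widest for 11F0.55.

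Transcripts numbered next to the globin genes were looked up in the same way. The identifiers share the contig and the leading gene number with 9 other measured transcripts for 11F0.55, of which 1 had a positive and 8 a negative log2 fold change (median -0.23), with 0 called. For 35F4.44 there were 8 such transcripts, of which 4 were positive and 4 negative, for 3F39.53 there were 2, both positive (0.34 and 0.51), and for 0F43.50 there were 8, of which 5 were positive. Of all transcripts, 50.4% were positive. None of the neighbours passed the edgeR threshold. As 11F0.55 alone passed it, 0.0165% of 6050 transcripts, this says nothing about the neighbours. One neighbour, 35F4.45, had 9 reads in 5 ASH samples and 0 in the 412801 control reads (edgeR adjusted p = 1). Its pooled ASH level was 1.83-fold the level that the floor of 3 reads over the control group would give. That ratio takes the 9 reads as exact and is no lower bound. In FI, IL and GB the log2 fold change of 35F4.45 was -0.12. That neighbour was picked out after its values were seen.

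The 8 transcripts with the lowest p among those lower after ASH had edgeR adjusted p of 0.942 or 1, so that none is called lower. The clearest in the samples was 5F32.58, with 114, 66.5 and 83.5 CPM in normoxia controls, 108, 76.5 and 121 CPM in CMIH controls, 64.7, 55.1 and 46.4 CPM after ASH in normoxia-reared and 9.78, 53.5 and 13.5 CPM after ASH in CMIH-reared pools. It was the single transcript of the table whose 6 ASH values all lay below the 6 control values, with the highest ASH value (64.7 CPM) next to the lowest control value (66.5 CPM). Its log2 fold change was -1.22 ± 0.40 (SE; edgeR adjusted p = 1) from 69 reads. Transcript 0F12.35 had 39.8 to 96.5 CPM after ASH and 90.5 to 173 CPM in controls, and 10F20.16 had 68.4 to 114 CPM after ASH and 106 to 229 CPM in controls. Both overlapped narrowly. For 16F4.87, 11F2.74 and 0F30.113 the log2 fold changes were between -1.37 and -1.21. These are small counts, of 64 to 128 reads over 12 samples apart from the pair that follows.

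The pair 13F14.75 and 13F14.21 had the most negative fold changes among them (both -3.52) and rested on few samples. Their reads were equal in 10 of the 12 samples and differed by 1 in the other 2, although their reference lengths are 2836 and 695 bases, so that they may count the same molecules. Their level was 1356 and 1369 CPM in normoxia control replicate 5 and 332 CPM for both in CMIH control replicate 9, against 0 to 76.5 CPM in the 10 other samples, ASH and control alike. Without normoxia control replicate 5 the log2 fold changes were still negative, and over all libraries left out in turn they ranged from -3.84 to -1.50 for 13F14.75 and from -3.84 to -1.39 for 13F14.21. All 37 transcripts of which that control held over 50% of the summed CPM had negative log2 fold changes (median -2.66). That sign was all but fixed by the choice, since over 50% in a control puts the controls above the ASH samples in sum. Of the 104 lower ones at an unadjusted p under 0.05, 22 were among these 37, with 0 called. They took 8.73% of the reads of that sample and 0.0184% to 2.60% in the other 11. They lie on 15 contigs, 8 of them on contig 36, 6 on contig 13 and 5 on contig 79, and none has a description. The fit without that sample had 201 transcripts at an unadjusted p under 0.05 in place of 234, and 11F0.55 was again the 1 called.

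**Figure D3:**
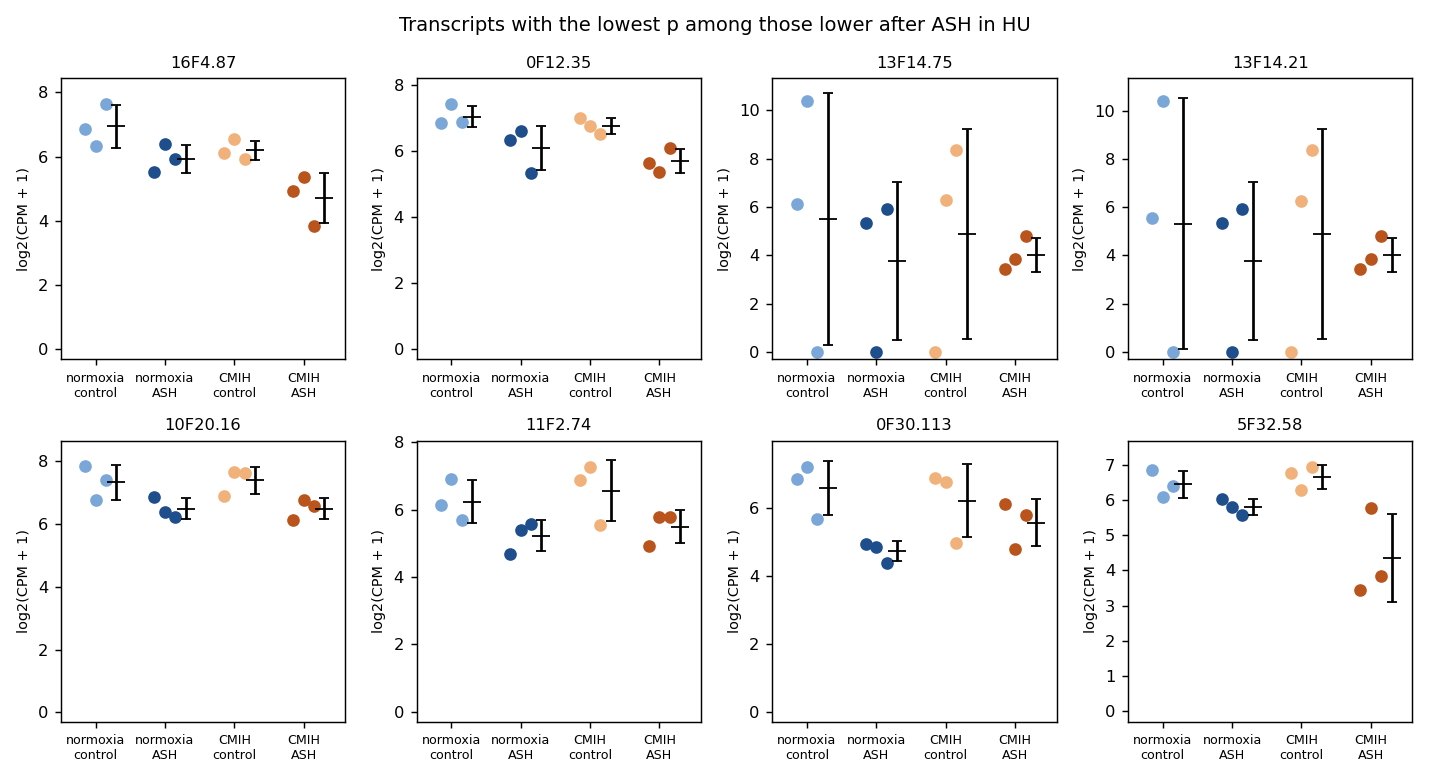
Levels of the 8 transcripts with the lowest p among those lower after ASH in HU, as log2(CPM + 1), with 1 point a pool and the mean and SD of the 3 pools of a group. None passed the edgeR threshold. The panels of 13F14.75 and 13F14.21 show normoxia control replicate 5 at the top (1356 and 1369 CPM) and other controls at 0.

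The response was then taken apart by rearing condition, 3 ASH against 3 control pools, in a fit of the 4 groups that shares their spread. In normoxia-reared HU 1 of 6050 transcripts passed (0.0165%), again 11F0.55, with a log2 fold change of 6.43 ± 0.88 (SE; edgeR adjusted p = 0.026). At an unadjusted p under 0.05 there were 86 higher and 69 lower. This call was lost with 9 of the 12 libraries left out in turn, each normoxia library and each CMIH ASH library among them, and in the fit of the 6 normoxia-reared samples alone. In CMIH-reared HU no transcript passed (0 of 6050, or 0%), with 114 higher and 80 lower at an unadjusted p under 0.05. DESeq2 called 1 there, and the fit with the spread of all 48 samples called 3. There 11F0.55 had a log2 fold change of 3.96 ± 0.74 (SE; edgeR adjusted p = 0.307).

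Whether the response differed between rearing conditions was tested as the interaction of CMIH and ASH, and 0 of 6050 transcripts (0%) passed, with 133 at an unadjusted p under 0.05. DESeq2 also gave 0. The log2 fold change after CMIH minus that after normoxia was -2.47 ± 1.11 (SE) for 11F0.55, -1.58 ± 0.72 for 3F39.53 and -1.34 ± 0.84 for 35F4.44 (edgeR adjusted p = 1 for all 3). The control CPM of all 3 were higher on average after CMIH, while the ASH means went different ways. They were 1559 ± 386 CPM after normoxia and 1098 ± 382 CPM after CMIH for 11F0.55, 372 ± 110 and 588 ± 156 CPM for 35F4.44 (SD, n = 3 each), and nearly the same for 3F39.53, as given above. Transcript 26F14.45 had 1.97 ± 0.69 after normoxia and 2.65 ± 0.70 after CMIH, and 16F2.79 had 1.14 ± 0.45 and 1.93 ± 0.46 (log2 fold changes ± SE), an order opposite to that of the globins but with an interaction of 0.68 ± 0.95 and 0.80 ± 0.63. The standard errors of these 5 differences run from 0.63 to 1.11, so that differences of 1 on the log2 scale between rearing conditions were not detectable.

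**Figure D4:**
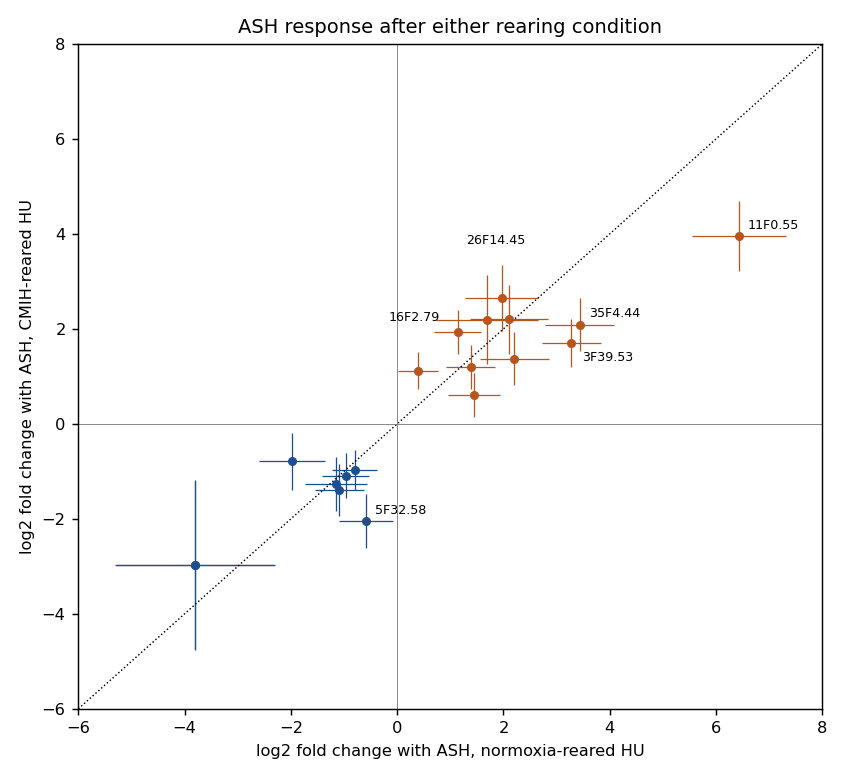
Log2 fold change with ASH in normoxia-reared HU (horizontal axis) and in CMIH-reared HU (vertical axis), with bars of 1 SE, for 19 of the 21 named transcripts, leaving out 0F43.50 and 1F21.30, which have 0 reads in every control of at least 1 rearing condition. The dotted line marks equal response. The hemoglobins 11F0.55 and 3F39.53 and the cytoglobin 35F4.44 lie below it.

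To see whether HU shared the response of the other clones, a list was made without any HU sample. In the 36 samples of FI, IL and GB, 53 transcripts were called higher after ASH (0.876% of 6050) and 5 were called lower (0.0826%). Of the 53, 42 had a positive log2 fold change in HU, where 50.4% of all 6050 transcripts did. At an unadjusted p under 0.05, 18 of the 53 were higher in HU, beside 2.15% of all transcripts. The other 11 had a negative log2 fold change or no reads, and 0 of them were lower at an unadjusted p under 0.05, beside 1.72% of all transcripts. Their median log2 fold change was 0.88 in HU and 1.18 in the clones that made the list, against 0.01 over all transcripts of HU. One of the 53, 11F0.55, passed the threshold in HU. Of the 53, 27 had at least 60 reads in HU, with a median of 0.94, and 1 had none. With a list made by DESeq2's Wald test instead (83 higher), 62 were positive in HU and the median was 0.40.

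Among the 10 transcripts with the lowest p in the other clones, all were positive in HU. Transcript 98F0.38 had 0 to 66.5 CPM in HU controls and 27.6 to 139 CPM after ASH, and its log2 fold change was 1.95 ± 0.65 (SE) in HU against 2.64 ± 0.23 elsewhere. Transcripts 1F48.69 and 1F52.43 had 1.00 ± 0.34 and 0.75 ± 0.28 in HU against 1.80 ± 0.20 and 1.48 ± 0.19 elsewhere. For all 3 the exact permutation test gave p = 0.015, two-sided. Transcript 1F21.30 was rare in HU alone. Its mean after ASH in HU was 66.7 RPKM, below the control means of 79.3 in FI, 149 in IL and 289 in GB. In HU its reads were sharply divided, with 2, 4 and 2 in CMIH ASH, 4, 2 and 4 in normoxia ASH and 0 in every control. In HU, 1F21.30 was the single transcript with reads in all ASH samples and none in controls (exact permutation p = 0.005, two-sided). Its pooled ASH level was 3.67-fold the level that the floor of 3 reads over the control group would give, with the ASH reads taken as exact.

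None of the 5 transcripts called lower in the other clones was called lower in HU. As 0 of all 6050 transcripts were called lower in HU, this says nothing about these 5. Their log2 fold changes in HU were all positive, from 0.00 to 0.24 (median 0.12), against a median of -0.71 in the other clones, and they were well covered, with a median of 575 reads in HU. Of the 30 transcripts that DESeq2's Wald test called lower in the other clones, 23 were positive in HU and 7 negative, down to -0.60, with a median of 0.13. At an unadjusted p under 0.05, 0 of them were lower in HU, beside 1.72% of all transcripts. Transcript 11F25.98 had 0.09 ± 0.32 (SE) in HU and -0.93 ± 0.21 elsewhere, and the difference of 1.07 ± 0.37 had an edgeR adjusted p of 0.666. On the other side, 28F0.112 was called higher in the other clones (0.90 ± 0.13) and had -0.01 ± 0.29 in HU with 544 reads, a difference of -0.86 ± 0.28 (edgeR adjusted p = 0.666). Both were picked out after their values were seen.

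**Figure D5:**
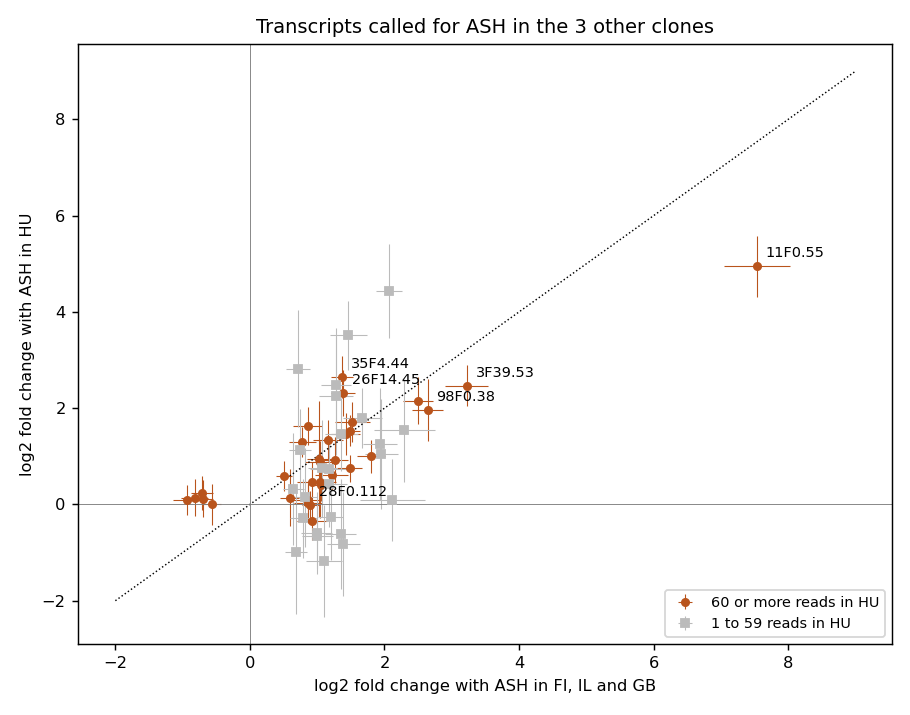
Log2 fold change with ASH in HU (vertical axis) against that in FI, IL and GB (horizontal axis) for the transcripts called in those 3 clones, with bars of 1 SE, leaving out 1 transcript without reads in HU. The dotted line marks equal response. Filled circles have at least 60 reads in HU; 42 of the 53 higher transcripts lie above 0 in HU, and the 5 lower ones lie at or just above 0.

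The difference between the ASH response of HU and the mean response of FI, IL and GB was tested in a fit of all 48 samples, and 0 of 6050 transcripts (0%) passed, with 422 at an unadjusted p under 0.05. DESeq2's Wald test also gave 0. Against GB alone, the other clone of the permanent class, edgeR called 0 of 6050 (0%), with 212 at an unadjusted p under 0.05. The globins with the lowest p were 11F0.55, for which HU minus the others was -2.51 ± 0.86 (SE; edgeR adjusted p = 0.666), and 35F4.44, for which it was 1.32 ± 0.40 (SE; edgeR adjusted p = 0.666). For 3F39.53 the difference was -0.72 ± 0.60 (SE; edgeR adjusted p = 0.841). The control level of 11F0.55, from which its fold change starts, had a mean of 0.557 ± 1.36 RPKM in IL, 1.42 ± 3.48 in FI and 8.32 ± 9.75 in GB against 18.1 ± 24.2 RPKM in HU (SD, n = 6 each). In HU the SD exceeded the mean, so that any lower level lies within 1 SD of it. Whether the control levels differ between clones was not tested. Conversely, all 8 leading higher transcripts of HU were called higher in the other clones, where 0.876% of all transcripts were. Their median log2 fold change there was 1.51, against 0.03 over all transcripts. Of the 8 leading lower ones 0 were called and 3 had a negative sign (median 0.31). With 0.0826% of all transcripts called lower there, a count of 0 says nothing about these 8.

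Counted without a model, 14 transcripts had 6 ASH values all above the 6 control values (0.231% of 6050) and 1 had them all below (0.0165%). All 14 had a positive log2 fold change in the other clones as well, with a median of 1.38 against 0.03 over all transcripts. Among the 53 called higher there, which are 0.876% of all transcripts, were 9 of the 14. The 5 others were 21F18.26, 0F36.54, 4F21.11, 12F25.91 and 67F2.88. Of these, 21F18.26 had a log2 fold change of 1.11 ± 0.35 (SE) in HU and 0.01 ± 0.25 in the other clones. With all libraries thinned to the shallowest one, 9 transcripts had ASH values all above and 1 had them all below.

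Over the transcriptome as a whole the samples were not set apart by treatment in the test used. The mean Euclidean distance in log2(CPM + 1) between ASH and control pools of the same rearing condition, over the 3164 transcripts with at least 60 reads, was 100.1, and that between pools of the same group was 105. Pools of 1 group were on average no nearer to each other than to pools of the other treatment (difference -4.59, exact permutation p = 0.57, two-sided, 400 relabellings). The common biological coefficient of variation of HU was 0.522, against 0.446 to 0.477 in the other clones.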

How the data were processed

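The samples were 12 libraries of clone HU in 4 groups of 3, and 36 of the clones FI, IL and GB served for comparison. The authors sequenced PCR-amplified cDNA on the MinION, called, sorted and mapped reads with Guppy (SAMtools is named in the submitters' processing notes) to the longest isoform of each gene, kept the transcripts with at least 72 reads over all samples, and deposited whole read counts without normalization. They also deposited RPKM, the counts scaled by transcript length and sample total. Reads were not marked by molecular identifiers, so floors cover counting error only, and reads shared between near-identical genes cannot be assigned.

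Counts were tested with edgeR 4.0.16 in R 4.3.3 (TMM, quasi-likelihood F test, all 6050 transcripts, adjusted p under 0.05), and the steps were tested on simulated data. Standard errors were derived from the fold change and F. Single transcripts and distances used exact permutation of labels within rearing condition (400 relabellings, smallest p 0.005) in Python 3.11.15. Alternatives were DESeq2 1.42.0, other size factors, only transcripts with 24 or more HU reads, leaving aside the 10 with most reads, thinning, spread shared over 48 samples, other pseudocounts and leaving out each HU library.

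The 21 transcripts named by rule were those past the test, the 8 with the lowest p in each direction among those with at least 60 HU reads and 1 sign after both rearing conditions, the 4 globins labelled by the study, and the 10 with the lowest p in the other clones. A few others are marked as chosen after their values were seen. Members, lists and rules were chosen with earlier results of these data known. No identifier (0 of 6050) matched the gene table at hand, and no sequences are shown.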

Additional observations from a re-analysis of the deposited data

Results flagged for a closer look

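Among the 21 named transcripts and the total reads, each in the 6 ASH and the 6 control samples (44 groups), 4 groups had 1 sample far from the other 5, and chance alone would mark about 1 group in 20. For transcripts the gap to the next sample was set against the range in log2(CPM + 1), which gives weight to low levels. In CPM itself, in which the values below are given, the samples standing apart would in part be other ones. Transcript 98F0.38 was at 27.6 CPM in normoxia ASH replicate 11 and at 86.2 to 139 CPM in the other ASH samples. Transcript 1F21.30 was at 53.5 CPM in CMIH ASH replicate 2, from 4 reads, and at 19.5 to 27.6 CPM in the others. Transcript 1F26.8 was at 0 CPM in normoxia control replicate 6 and at 30.2 to 160 CPM in the other controls. Transcript 0F43.50 was at 29.3 CPM in CMIH control replicate 7, from 3 reads, and at 0 in the other controls. No interaction of rearing with ASH and no difference of HU from the other clones passed an adjusted p of 0.05.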

How the results depend on the processing

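The 1 call for ASH in HU became 3 in the mean of the rearing contrasts, 6 with DESeq2 and 10 with the spread shared over all 48 samples, and ranged from 1 to 3 with 1 library left out (3 without CMIH ASH replicate 2, CMIH control replicate 8 or normoxia control replicate 6). The 1 call in normoxia-reared HU became 2 with DESeq2, 2 with the shared spread and 0 in the 6 samples alone, and ranged from 0 to 1 with 1 library left out. The 0 calls in CMIH-reared HU became 1 with DESeq2, 1 after thinning and 3 with the shared spread. The list from the other clones grew from 58 to 113 with DESeq2 (83 higher, 30 lower). The 14 transcripts whose ASH values all lay above the controls became 9 after thinning. The separation of -4.59 ranged from -11.9 to 2.42 with 1 library left out, and turned positive without CMIH control replicate 7 (1.62), normoxia control replicate 5 (2.42) or replicate 6 (2.18), with exact permutation p of 0.76 to 0.89. The cause of these shifts was not tested. The interaction and the differences between clones gave 0 calls in each alternative run. The fold changes of the 21 named transcripts kept their sign in all 397 alternatives, and 18 of these, in 6 transcripts, passed the threshold where the reported value did not. The 72-read minimum over all samples, 1 clone and a median of 62 reads per transcript limit what can be called. No paired analysis was possible because no 2 groups of HU share a replicate number in the labels, and the replicate libraries that the study's methods describe are not tied to samples there.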

Other observations

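Apart from the comparisons above, 4 transcripts without a description were high in the 3 CMIH ASH pools and low in the 9 others. They were picked out after their values were seen and none passed a test across all transcripts. Transcript 36F5.68 had 108, 334 and 135 CPM in CMIH ASH replicates 1, 2 and 3, and 0 to 16.7 CPM in the other samples, 7 of which had no reads. Transcript 36F5.52 had 186, 241 and 108 CPM there and 0 to 50.1 CPM elsewhere, and 18F7.33 had 137, 80.3 and 162 CPM there and 0 to 16.7 CPM elsewhere. Transcript 1F47.46 was the most abundant of them, with 528, 776 and 283 CPM in CMIH ASH against 0 to 134 CPM elsewhere (median 22.9). In each the 3 pools lay above all others, but the share of all transcripts for which this holds is not given here. The 4 are therefore not read as a group particular to CMIH ASH. Their edgeR adjusted p was 0.307 to 0.55 for ASH in CMIH-reared HU and 1 for the interaction with rearing. In the other clones their mean ASH response had unadjusted p of 0.172 to 0.6.

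None of the 10 most abundant transcripts of HU had an unadjusted p under 0.05. Of all transcripts, 2.15% were higher and 1.72% lower at that p, so that the count says nothing about these 10. The first, 292F0.4, which took 8.84% of all HU reads, had 89852 ± 19745 CPM (SD, n = 6) after ASH and 90533 ± 20207 CPM in controls, and its log2 fold change was -0.03 ± 0.27 (SE; edgeR adjusted p = 1). For 163F0.27, the next, the log2 fold change was 0.30 ± 0.27 (SE; edgeR adjusted p = 1). The largest positive log2 fold change among them was that of 0F6.63, at 0.48 ± 0.26 (SE; edgeR adjusted p = 1), with 6490 ± 1221 CPM after ASH and 4552 ± 1147 CPM in controls (SD, n = 6). The most negative was that of 357F0.2, at -0.42 ± 0.27 (SE; edgeR adjusted p = 1).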
